A study of Mus musculus with 8 samples.

Results

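The RNAs described here are the fragments of spliceosomal and U7 small nuclear RNAs (snRNAs) in small-RNA libraries of mouse liver. They were taken by name, by a rule that uses no measured value, as the Rfam families U1 (RF00003), U2 (RF00004), U4 (RF00015), U5 (RF00020), U6 (RF00026), U11 (RF00548), U12 (RF00007), U4atac (RF00618), U6atac (RF00619) and U7 (RF00066). These are 10 of the 807 Rfam families, and 10 of the 2475 known miRNAs, known piRNAs and Rfam families, that were listed in at least 1 library. The study set Snd1 KO livers against WT livers, with 4 mice and 4 libraries of each genotype. The KO mice carried a germline deletion of the first Snd1 exon, made by Cre recombination of a floxed allele that had been targeted in embryonic stem cells of another mouse strain, and the line was bred onto C57BL/6N. The WT mice carried the intact gene, and the mice of both genotypes were C57BL/6N males of 8 to 12 weeks, given no treatment, sampled near midday in the fed state from the left lobe. The deletion was not restricted to a cell type, and flanking chromosome that came with the targeted allele cannot be told apart from the deletion itself. The 8 libraries held 16223610 to 27526162 tags. Only RNA of 18 to 30 bases was cut from the gel, so the libraries hold pieces of snRNAs and not the intact molecules, and they hold no Snd1 mRNA with which to check the genotype labels.

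Spliceosomal snRNAs are the RNA cores of the particles that remove introns. U1 marks the 5′ splice site, U2 pairs with the branch site, and U6, brought in while paired to U4, forms the catalytic centre together with U2, while U5 holds the exon ends. U11, U12, U4atac and U6atac take the places of U1, U2, U4 and U6 in the minor spliceosome, and U7 directs the 3′ end cleavage of histone pre-mRNAs. U6 and U6atac are made by RNA polymerase III and bind an LSm ring at their 3′ uridines. The other families are made by RNA polymerase II and bind a ring of Sm proteins, of which the ring of U7 holds a pair of dedicated subunits. SND1 carries a Tudor domain that is known to bind Sm proteins and the U5 particle, which is the question behind a comparison of these families between the genotypes.

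U1, U2 and U7 are shown as genes of the GENCODE M21 annotation on GRCm38, to place the pairing and ring sites in RNAs of which only pieces were sequenced. Each runs 5′ to 3′ on the transcript strand. The first capitals mark ACTTACCTG in U1, which pairs with the 5′ splice site, GTAGTA in U2, which pairs with the branch site, and CTCTTTT in U7, which pairs with histone pre-mRNA. The second capitals mark the Sm ring site.
U1, Rnu1a1: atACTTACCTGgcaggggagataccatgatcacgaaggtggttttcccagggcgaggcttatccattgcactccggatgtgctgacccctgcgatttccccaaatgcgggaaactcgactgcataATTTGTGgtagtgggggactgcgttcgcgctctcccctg
U2, Rnu2-10: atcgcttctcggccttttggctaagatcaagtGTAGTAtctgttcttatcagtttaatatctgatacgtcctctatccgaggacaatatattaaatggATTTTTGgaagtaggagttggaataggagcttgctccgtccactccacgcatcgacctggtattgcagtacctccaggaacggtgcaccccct
U7, Rnu7: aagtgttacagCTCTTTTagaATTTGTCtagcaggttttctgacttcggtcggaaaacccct

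Rnu1a1 lies at chr11:87422867-87423030 on the plus strand and is 164 bases long, Rnu2-10 lies at chr11:101658238-101658428 on the plus strand (191 bases) and Rnu7 at chr6:124741225-124741286 on the minus strand (62 bases). All are annotated as snRNA genes of 1 exon. The marked letters were searched on the transcript strand of the 1383 annotated snRNA transcripts. ACTTACCTG was in 3.98% of them, GTAGTA in 3.69% and CTCTTTT in 2.75%. The Sm sites were ATTTNTG for U1 and U2, in 20.5% of the transcripts, and ATTTGTC for U7, in 0.217%. Counting the gene shown itself, U1 had 7 identical transcripts in the annotation and 53 of at least 80% identity. U2 had 4 and 16, and U7 had 1 and 12, so Rnu7 had no identical copy. For U1 and U2 a tag therefore names a family and not a gene, and tags of U7 were likewise listed by family. How tags with several map positions were counted was not stated. U1, U2, U7, U11 and U12, the 5 families whose annotated gene was searched, shared no run of 18 bases with each other, and none shared one with a mature miRNA.

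Fragments of these snRNAs were rare. Summed over the 8 libraries they came to 9136 tags, or 0.0475% to 0.134% of the Rfam tags of a library. Of these, 4767 were among 99225850 tags in KO livers and 4369 among 85614842 tags in WT livers. The KO libraries were deeper in sum, so these counts do not compare levels. Levels are given in CPM, tags per 1000000 tags of the library, not divided by length except where said. U1, U2, U4 and U6 made up 97.4% of the snRNA tags, and the other 6 families together held 235 tags (2.57%). Only U1, U2, U4 and U6 reached 1 CPM in at least 4 libraries and so entered the test across small RNAs. One tag was worth 0.0363 to 0.0616 CPM and 3 tags, taken as the floor of detection, 0.109 to 0.185 CPM. No molecular identifiers were read, so PCR copies count as tags and such a floor covers counting error only.

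**Figure D1:**
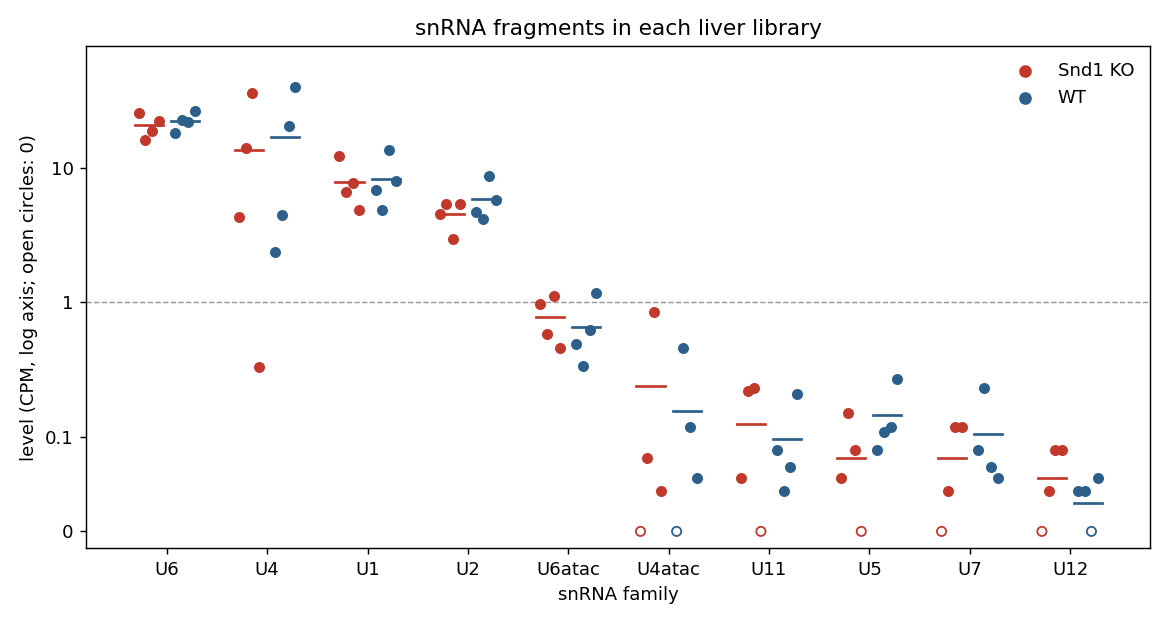
Level of each snRNA family in each library (CPM, log axis). Each point is 1 mouse, Snd1 KO in red and WT in blue, a bar is the group mean, an open circle at the foot of the axis is a library in which the family was not listed, and the dashed line is the 1 CPM minimum of the test. U6 spans 16.2 to 26.3 CPM, U4 spans 0.33 to 39.97 CPM, and the KO and WT points overlap in all 10 families. Among the 712 tested small RNAs, KO and WT values did not overlap in 20 (2.81%).

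U6, the catalytic RNA, was the most evenly found of the tested families. It had 25.5, 16.2, 18.6 and 22.3 CPM in the KO livers and 18.1, 22.5, 21.8 and 26.3 CPM in the WT livers. The groups overlapped over nearly their whole range, and the highest library was 1.63 times the lowest. The means were 20.6 ± 4.12 CPM in KO livers and 22.2 ± 3.35 CPM in WT livers (SD, n = 4 each). On the log2(CPM + 1) scale, which understates changes of low levels, the KO minus WT difference was -0.11 (SE 0.31, 95% interval -0.80 to 0.59), with a limma adjusted p of 0.986. Over the 8 libraries the SD of log2(CPM + 1) was 0.23 for U6, the 7th narrowest of the 236 tested small RNAs with a mean of 5 to 50 CPM. The RNAs whose log2 levels followed U6 most closely over the 8 libraries, which share their depth scaling, were miR-491-5p (Pearson r = 0.941), SNORD99 (r = 0.914), a box C/D small nucleolar RNA family, and the lin-4 microRNA precursor family (r = 0.892). With 8 points and 712 candidates these values are a description of likeness only.

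U1, which recognises the 5′ splice site, had 12.2, 6.58, 7.70 and 4.85 CPM in the KO livers and 6.85, 4.89, 13.5 and 7.91 CPM in the WT livers. The highest library was a WT one and the lowest a KO one, with the rest intermixed. The means were 7.82 ± 3.12 CPM in KO livers and 8.29 ± 3.69 CPM in WT livers (SD, n = 4 each), a log2 difference of -0.06 (SE 0.40, 95% interval -0.95 to 0.83, limma adjusted p = 0.988). The sign of this small difference depended on the scaling: it was 0.0024 when libraries were scaled to their Rfam tags and 0.017 when scaled by median ratios.

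U2, which pairs with the branch site, had 4.56, 5.34, 2.94 and 5.39 CPM in the KO livers and 4.65, 4.17, 8.63 and 5.77 CPM in the WT livers. The lowest of the 8 values was a KO library and the highest 2 were WT libraries, and the remaining values overlapped. The means were 4.56 ± 1.14 CPM in KO livers and 5.81 ± 2.00 CPM in WT livers (SD, n = 4 each). The log2 difference was -0.28 (SE 0.33, 95% interval -1.01 to 0.46, limma adjusted p = 0.986). U1 was above U2 in 7 of the 8 libraries, the exception being KO replicate 4. Divided by the length of the gene shown, the mean level of U1 was 4.77 CPM per 100 bases in KO livers and 5.05 in WT livers. That of U2 was 2.39 in KO livers and 3.04 in WT livers. The U1 gene shown is the shorter, so this division could only widen the gap between the means and is no separate check.

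U4, the partner that holds U6 until the spliceosome is activated, stood apart by its spread. It had 4.33, 13.9, 35.5 and 0.33 CPM in the KO livers and 2.37, 4.47, 20.5 and 39.97 CPM in the WT livers. Each genotype therefore held libraries above 20 CPM and libraries under 5 CPM, and the highest library was 121 times the lowest. These levels rest on 94, 382, 918 and 8 tags in the KO libraries and 58, 117, 333 and 748 tags in the WT libraries. The means were 13.5 ± 15.7 CPM in KO livers and 16.8 ± 17.4 CPM in WT livers (SD, n = 4 each), and the log2 difference was -0.52 (SE 1.09, 95% interval -2.97 to 1.94, limma adjusted p = 0.986). That interval covers KO levels from 0.127 to 3.82 times those of WT in CPM + 1, so the libraries set no close limit on U4. The SD of log2(CPM + 1) was 1.76, wider than in 97.7% of the 712 tested small RNAs and the 5th widest of the 236 of similar level. Within the genotypes the SD was 2.05 in KO livers and 1.68 in WT livers. The rank of U4 by spread was looked up after its values had been seen.

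**Figure D2:**
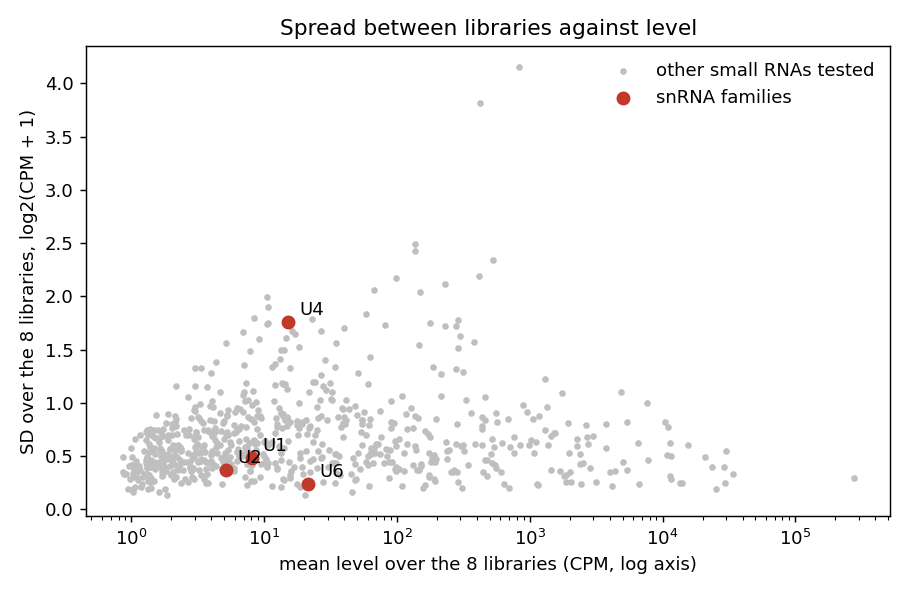
SD of log2(CPM + 1) over the 8 libraries against mean level (CPM, log axis) for the 712 tested small RNAs. Grey points are other small RNAs and red points the tested snRNA families, with U4 at an SD of 1.76, against 0.48 for U1, 0.37 for U2 and 0.23 for U6.

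The libraries also differed in their share of known miRNA tags, which was 75.9% to 78.7% in KO replicates 2 and 3 and WT replicates 1 and 2, and 57.9% to 67.6% in KO replicates 1 and 4 and WT replicates 3 and 4. Within the 4 libraries of higher share the log2 difference between KO and WT livers was 2.44 for U4, and within the 4 of lower share it was -3.48. In both sets the KO and WT values did not overlap, in opposite directions, with 2 libraries of each genotype in each set. Such small sets often separate: KO and WT values did not overlap for 45.4% of the 712 tested small RNAs in the set of higher share and for 37.2% in the set of lower share, and 38 of the 712 (5.34%) did so in both sets in opposite directions. The part of this split in the U4 values was not tested. For U6 the 2 differences were -0.21 in the libraries of higher share and -0.0025 in those of lower share, for U1 0.26 at higher and -0.37 at lower share, and for U2 -0.11 at higher and -0.44 at lower share.

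**Figure D3:**
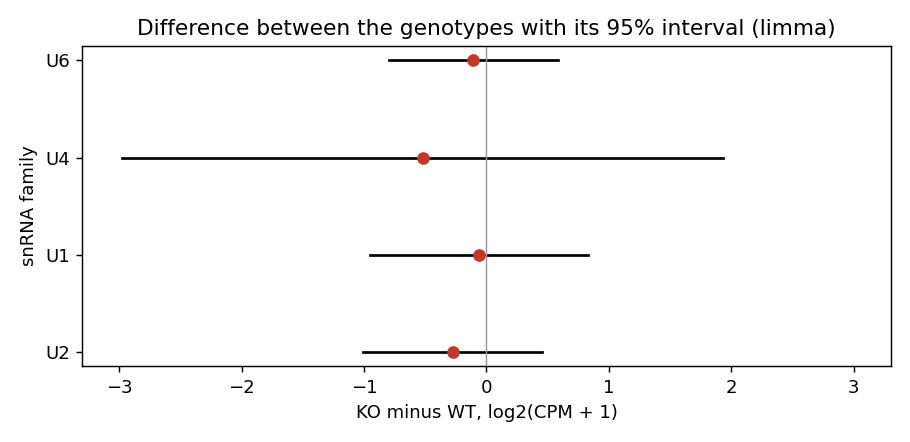
Log2(CPM + 1) difference, KO minus WT, of the 4 tested snRNA families, with points for the limma estimate and lines for its 95% interval. The interval of U6 runs from -0.80 to 0.59, that of U4 is the widest at -2.97 to 1.94, and all 4 include 0.

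None of the 4 tested families passed an adjusted p of 0.05, and none had an unadjusted p under 0.05. Among all 712 small RNAs tested, 0 were called (0%) and 20 (2.81%) had an unadjusted limma p under 0.05. The lowest limma adjusted p of any small RNA was 0.519. The groups overlapped in all 10 snRNA families, of which 6 lay below the minimum of the test. Overlap was also the usual case among the 712 tested small RNAs, of which 20 (2.81%) had KO values that did not overlap the WT values. The overlap is therefore no trait particular to the snRNA families. All 4 estimates lay below 0 with a median of -0.19, beside a median of -0.12 over all tested small RNAs, of which 426 lay below 0 and 286 above. In bulk liver, fewer cells of a type and less RNA per cell cannot be told apart. Summed over their 4 marker miRNAs, hepatocytes had 250637 to 382444 CPM in KO livers and 244255 to 374574 CPM in WT livers, and the 5 leukocyte markers summed to 418 to 581 CPM in KO livers and 131 to 556 CPM in WT livers, so that both ranges overlapped. The ranges also overlapped for the erythroid, endothelial, stellate and mesenchymal, and biliary markers. The biliary markers summed to 217 to 377 CPM in KO livers and 272 to 492 CPM in WT livers.

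U5, the particle known to bind the SND1 Tudor domain, was almost missing from the fragments. It had 1, 4, 2 and 0 tags in the KO livers (0.05, 0.15, 0.08 and 0 CPM) and 2, 3, 2 and 5 tags in the WT livers (0.08, 0.11, 0.12 and 0.27 CPM). The 0 tags of KO replicate 4 allow a level of up to 0.124 CPM. Pooled, these are 7 tags in 99225850 in KO livers and 12 tags in 85614842 in WT livers, a ratio of 0.503 with a 95% exact interval of 0.168 to 1.39 that covers counting error only. A difference between the genotypes was not detectable at this depth (exact permutation p = 0.229, two-sided, 70 assignments, n = 4 each). As a share of snRNA tags, which does not depend on library scaling, U5 made up 0.143% ± 0.147 in KO livers and 0.263% ± 0.0639 in WT livers (SD, n = 4 each, exact permutation p = 0.2). Leaving out 1 library moved this past 0.05: without KO replicate 2, which had the highest share of all (0.348%), the difference was -0.19 percentage points with an exact p of 0.0286, the smallest its 35 assignments allow. With all 8 libraries the U5 share of the snRNA tags was 0.208%.

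The minor spliceosome was represented mainly by U6atac, the counterpart of U6. It had 0.97, 0.58, 1.12 and 0.46 CPM in the KO livers and 0.49, 0.34, 0.62 and 1.18 CPM in the WT livers, from 9 to 29 tags a library. The highest value was a WT library and the lowest also a WT library, so the KO values lay inside the WT range (exact permutation p = 0.657, n = 4 each). U6atac had more tags than U5 in all 8 libraries and more than U4atac in 7 of 8.

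U4atac, the counterpart of U4, was found in bursts. It had 0, 2, 22 and 1 tags in the KO livers and 0, 12, 2 and 1 tags in the WT livers, equal to 0, 0.07, 0.85 and 0.04 CPM in KO livers and 0, 0.46, 0.12 and 0.05 CPM in WT livers. One library of each genotype, KO replicate 3 and WT replicate 2, held most of its tags, and the groups overlapped (exact permutation p = 0.857, n = 4 each). U11, which takes the place of U1, had 1, 6, 6 and 0 tags in KO livers and 2, 1, 1 and 4 tags in WT livers (exact permutation p = 0.829). U12, which takes the place of U2, had 0, 1, 2 and 2 tags in KO livers and 1, 1, 0 and 1 tags in WT livers (exact permutation p = 0.629). Each of these 2 families lies at or near the floor, so their levels are read no further. Together the 4 minor spliceosome families made up 2.34% ± 0.726 of the snRNA tags in KO livers and 1.82% ± 0.466 in WT livers (SD, n = 4 each, exact permutation p = 0.314).

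U7, which is not part of a spliceosome, had 0, 1, 3 and 3 tags in KO livers and 2, 6, 1 and 1 tags in WT livers. In CPM these were 0, 0.04, 0.12 and 0.12 in KO livers and 0.08, 0.23, 0.06 and 0.05 in WT livers, which overlapped (exact permutation p = 0.571, n = 4 each). The 0 tags of KO replicate 1 allow up to 0.138 CPM, above the mean of either genotype.

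**Figure D4:**
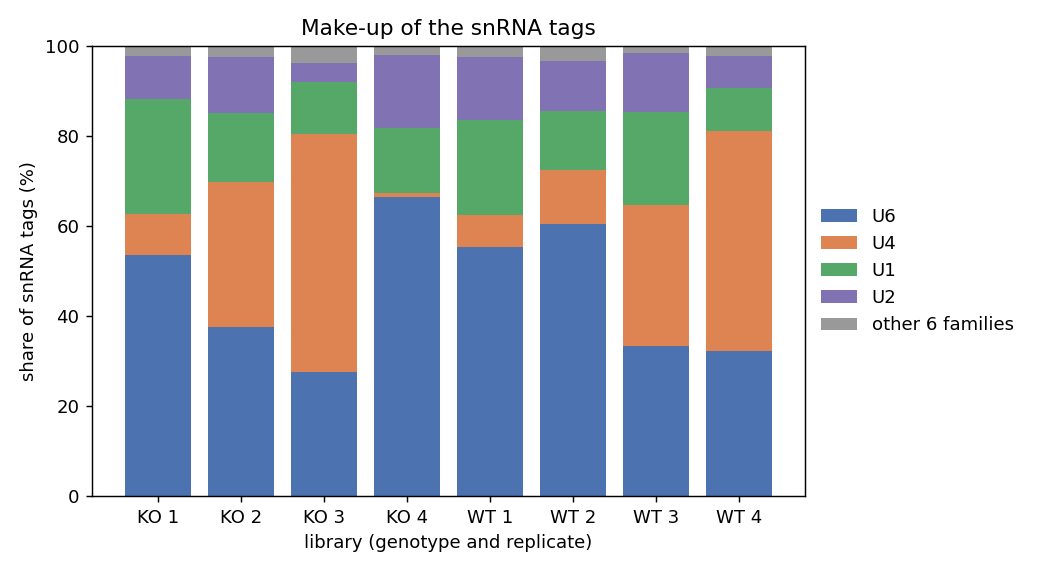
Make-up of the snRNA tags of each library (share in percent), KO libraries left and WT libraries right. U4 takes 0.982% to 52.8% of the tags in KO libraries and 7.24% to 48.9% in WT libraries, and the share of U6 is correspondingly small where that of U4 is large.

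The make-up of the snRNA tags was compared next, since shares are free of the library total. U6 made up 53.6%, 37.5%, 27.6% and 66.5% of the snRNA tags in KO livers and 55.3%, 60.4%, 33.3% and 32.2% in WT livers. It had the most tags in 6 libraries and U4 had the most in KO replicate 3 and WT replicate 4. The mean U6 share was 46.3% ± 17.2 in KO livers and 45.3% ± 14.7 in WT livers (SD, n = 4 each, exact permutation p = 0.943). With U4 left out of the total, a choice made after seeing the data, the U6 share was 60.0% ± 5.01 in KO livers and 59.9% ± 8.49 in WT livers (exact permutation p = 1). The SD of the U6 share was thus smaller in both genotypes once U4 was set aside. The summed level of all 10 families was 47.6, 43.1, 67.2 and 33.6 CPM in KO livers and 32.8, 37.3, 65.4 and 81.8 CPM in WT livers. The KO minus WT difference of the means was -6.42 CPM, and 2.74 CPM without WT replicate 4. Without U4 the summed level was 29.2 to 43.3 CPM in KO livers and 30.4 to 44.9 CPM in WT livers.

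U4 and U6 travel as 1 particle, so their ratio was read in each library. U4 had 0.170, 0.858, 1.91 and 0.0148 tags for each U6 tag in KO livers and 0.131, 0.198, 0.943 and 1.52 in WT livers. The log2 ratio was -1.98 ± 3.10 in KO livers and -1.19 ± 1.71 in WT livers (SD, n = 4 each, exact permutation p = 0.714). The sign depended on the scale: the mean of the untransformed ratios was 0.739 ± 0.864 in KO livers and 0.698 ± 0.660 in WT livers (exact permutation p = 0.971). Over the 8 libraries, which share their scaling, the log2 levels of U4 and U6 had a Pearson r of -0.03, those of U1 and U4 one of 0.44 and those of U1 and U2 one of 0.41, given as descriptions.

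Other RNAs were taken from 2 lists chosen by name. The first holds 19 families, namely the small Cajal body RNAs, which guide the modification of snRNAs, the histone stem-loop, which is the processing partner of U7, and U3, U8 and U13, which are nucleolar RNAs of ribosomal RNA processing and no part of splicing. Of these, 6 were tested, 3 lay above 0 and 3 below with a median log2 difference of 0.04, and 0 were called by limma (0 with an unadjusted p under 0.05). The second list is of structured RNAs outside splicing, for comparison. Of its 12 families (ribosomal RNAs, tRNA, 7SK, signal recognition particle RNA, Y RNA, vault RNA, RNase P and MRP RNA and telomerase RNA), 10 were tested, 6 lay above 0 and 4 below with a median of 0.12, and 0 were called by limma (0 with an unadjusted p under 0.05). None of the 1441 predicted miRNA and piRNA entries of the files overlapped an annotated snRNA gene.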

How the data were processed

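RNA of 18 to 30 bases from total liver RNA was made into BGISEQ-500 libraries. Per the labels and the methods, the authors mapped tags with Bowtie to GRCm38; its version and the counting of multi-mapping tags were not given in the sources used here. The deposited CPM (headed TPM) are tags per 1000000 tags of the library, rounded to 2 decimals, not divided by length. KO replicate 1's file lists no genomic classes.

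Rows of a family were summed and an absent family was given 0. For each library the total was taken at which its values become whole tags. Within 0.0051 CPM this held for 100% of values, against 36.8% to 49.2% for a total 1% larger. A limma model (limma 3.58.1, R 4.3.3) that lets the variance follow the mean was fitted to log2(CPM + 1). It covered the 712 small RNAs that reached 1 CPM in 4 or more libraries. Adjustment was Benjamini-Hochberg over all 712, with a threshold of 0.05. The model was tested on simulated data in which all small RNAs were given the median SD of 0.575. That test does not cover a spread as wide as that of U4 (SD 1.76). Shares, ratios and single families were compared by two-sided exact permutation tests over 70 assignments, with a smallest p of 0.0286. The replicate block allows fewer assignments, and its smallest p lies above the threshold. A count model planned for recovered tags was not run, as a second check did not take the values of 6 of the 8 files as whole tags. All 10 members are named; other RNAs are named as the 3 most alike to U6, as list counts, or where said to be chosen later. The rule takes the members by name, but it and the lists were chosen with earlier results of these data known. Sequences of some families are not reported here. Replicates are separate mice. Alternatives covered the pseudocount, filter, scaling, repeated rows, features tested, replicate block, a split by miRNA share, and each library left out.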

Additional observations from a re-analysis of the deposited data

Results flagged for a closer look

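In 54 sets of 4 libraries the highest or lowest value was checked for a gap to the others, and 4 stood apart. A set was, in 1 genotype, the level or share of a family or a sum, ratio or share built from several. Chance would give about 2.7 if the sets were independent, but many rest on the same tags, so 2.7 is a rough guide only. All 4 are values of U4atac or U7, families with 0 to 22 tags a library. How such low counts change the number given by chance was not tested. U4atac reached 0.85 CPM in KO replicate 3, against 0 to 0.07 CPM in the other KO livers, and its share of the snRNA tags there was 1.27%, against 0% to 0.163% in the others. In WT replicate 2 the U4atac share was 1.23%, against 0% to 0.183% in the other WT livers. U7 reached 0.23 CPM in WT replicate 2, against 0.05 to 0.08 CPM in the other WT livers, on 6 tags.

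U4 was higher in both KO libraries than in both WT libraries among the 4 libraries of higher known miRNA share (log2 difference 2.44) and lower in both among the 4 of lower share (-3.48). Of the 712 tested small RNAs, 38 (5.34%) separated in both sets in opposite directions. The split was made from the libraries and is not a group of the study, and the difference between these 2 values was not tested.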

How the results depend on the processing

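The count of called snRNA families was 0 under all 19 alternatives. The number of small RNAs called was 0 under 16 of them, 1 with the library split by known miRNA share as covariate (miR-1247-5p, limma adjusted p = 0.0169), and 0 to 2 with libraries left out, being 1 (piR_025576) without KO replicate 1 and 2 (the mir-22 family and miR-196b-5p) without WT replicate 2. An unadjusted limma p under 0.05 was reached by 20 small RNAs, by 68 with the split as covariate, by 18 to 31 with a library left out (31 without KO replicate 4) and by 16 with the replicate block. The U1 log2 difference turned to 0.0024 with scaling to Rfam tags and 0.017 with median ratios, and ran from -0.27 to 0.18 with a library left out, positive without KO replicate 4 (0.12) and without WT replicate 3 (0.18). The U4 difference ran from -1.26 to 0.34, positive without KO replicate 4 (0.34) and without WT replicate 4 (0.10). The U6 share difference ran from -5.71 to 7.24 percentage points and turned negative without KO replicate 1, KO replicate 4, WT replicate 3 or WT replicate 4. The U4 to U6 log2 ratio difference ran from -1.77 to 0.57, positive without KO replicate 4, and the U5 share difference from -0.19 to -0.073, past the threshold without KO replicate 2. U2 (-0.39 to -0.094) and U6 (-0.21 to -0.0015) kept their direction, as did the minor share (0.18 to 0.73 percentage points). The summed level difference ran from -13.6 to 2.74 CPM, positive without WT replicate 4. The cause of these changes was not tested.

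Deviations of same-numbered KO and WT libraries correlated at -0.41, 0.14, -0.47 and -0.16, and no KO library correlated best with the WT library of its own number. The paper states that its experiments used littermates born to heterozygous parents, without saying which replicate numbers shared a litter. The labels do not say whether the numbers mark pairs of mice, and these correlations do not settle it. With the replicate block 0 small RNAs were called. Its exact p was 1 for the U4 to U6 ratio, 0.25 for the U5 share and 0.625 for the minor share. The exact tests with the block exchange KO and WT only within a replicate number. With so few assignments their p could not pass the threshold for any data, so they decide nothing about these results. The 2 count models (a quasi-likelihood fit and limma-voom on recovered tags) were not run. Levels of U5, U11, U12, U4atac and U7 rest on 0 to 22 tags a library, so depth limits what can be said of them.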

Other observations

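The small RNAs that most resembled U4 were looked up after its values had been seen. The closest was the small nucleolar RNA family SNORD123, with a Pearson r of 0.971 over the 8 libraries, which share their scaling. It had 0.64, 1.16, 2.78 and 0.08 CPM in the KO livers and 0.29, 0.42, 1.66 and 3.42 CPM in the WT livers, so that its lowest library, KO replicate 4, and its 2 highest, WT replicate 4 and KO replicate 3, were those of U4. U4 had 6.77 to 12.8 times the CPM of SNORD123 in the 7 libraries other than KO replicate 4, where SNORD123 lay below the floor of 3 tags (0.124 CPM). The annotated Snord123 transcript of 71 bases shared 0 runs of 18 bases with any annotated snRNA on either strand. The mir-155 precursor family (r = 0.914) and miR-181b-5p (r = 0.905) came next. With 712 candidates and 8 points such values are a description, and no relation between these RNAs was tested.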
